A study of Sorghum bicolor with 177 samples.

Results

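The genes described here are 127 of the 34129 genes of a deposited expression table of Sorghum bicolor BTx623, an inbred grain sorghum line with a sequenced genome. They are the genes whose closest rice gene is described as a helix-loop-helix protein, without the 9 that are named after the Arabidopsis iron regulators bHLH38, ORG2, PYE, ILR3, bHLH105 and bHLH121. No measured value entered the choice. The plants stood in hydroponic solution, and roots and young leaves were taken for poly-A selected RNA sequencing. The groups were iron limitation (FeLim, 0 µM NaFe(III)EDTA with 1 µM ZnSO4), iron excess (FeEx, 1 mM NaFe(III)EDTA with 1 µM ZnSO4), zinc limitation (ZnLim, 50 µM NaFe(III)EDTA with 0 µM ZnSO4), zinc excess (ZnEx, 50 µM NaFe(III)EDTA with 100 µM ZnSO4) and the control solution (50 µM NaFe(III)EDTA with 1 µM ZnSO4). Roots were sampled at 1 h and at 2, 4, 7, 14 and 21 d, leaves at 2, 4, 7, 14 and 21 d, and both also at 0 h before the transfer. All groups shared the line, the greenhouse and the remaining salts of the solution.

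Basic helix-loop-helix (bHLH) proteins are transcription factors that bind DNA as pairs, and plants use different branches of the family for different tasks. The PIF branch binds phytochromes and sets growth in the dark and in shade. The MYC branch carries jasmonate responses and is held back by JAZ repressors. RHD6 and its RSL relatives start root hairs. LHW with the TMO5 and T5L1 group builds vascular tissue. SPCH, MUTE and FAMA with ICE1 form stomata. FIT, with the bHLH38 group, switches on iron uptake in the Arabidopsis root, while rice and other grasses use related bHLH factors for their own iron uptake system.

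Each level below is the authors' mean TPM (transcripts per 1000000 transcripts) of the libraries of 1 tissue, time and solution, printed without SD or n because the table gives means. A gene is called X-like where X is the closest Arabidopsis gene of the deposited annotation, and genes named after the same Arabidopsis gene may share reads. Of the 127 genes, 117 carried the transcription factor family bHLH in that annotation and 10 did not, among them 3 genes named after LHW, whose bHLH domain is atypical, and the APTX-like Sobic.001G405600, named after a DNA repair protein. The label of the set did not hold for Sobic.006G047200, which is named after FIT (FER-like regulator of iron uptake) and was retained because its symbols were not on the exclusion list. The leaf marker held: 19 genes for chlorophyll a-b binding proteins summed to 30.5 to 88.6 TPM in roots and 56000 to 216000 TPM in leaves. The root markers gave less, since no gene was named after CASP1 to CASP5. The 2 genes named after other root markers summed to 0.069 to 10.6 TPM in roots and 0 to 0.21 TPM in leaves, ranges that overlap.

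Much of the family was near silence. In roots 65 of the 127 genes (51.2%) had a mean of at least 1 TPM over the 31 columns, against 60.1% of all genes, and in leaves 41 (32.3%) did over the 26 columns, against 50.0% of all genes. In neither tissue did 55 (43.3%, against 35.4% of all genes) reach that level, and 16 stayed below 0.1 TPM in every column. Roots alone held 31 (24.4%, against 14.6% of all genes) and leaves alone 7 (5.5%, against 4.5%). Genes named after 1 Arabidopsis gene were often part silent. Of 6 genes named after MYC2, the central jasmonate factor, 1 reached 1 TPM in a tissue; of 6 named after PIF1, 2 did; of 9 named after bHLH25, 5 did; and all 4 named after the Arabidopsis endosperm factor ZOU (AT1G49770) stayed below it. All 9 of the excluded iron regulators had at least 1 TPM in both tissues.

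The clearest difference within the family lay between the tissues. The FIT-like Sobic.006G047200 ranged from 23.4 to 339 TPM (median 114) in roots, against 0 to 1.06 TPM (median 0) in leaves. Sobic.006G127900, named after AKS2 (AT1G05805), which activates potassium channel genes of guard cells in Arabidopsis, was the most abundant member in roots at 42.2 to 974 TPM (median 289), against 0 to 10.6 TPM (median 4.04) in leaves. Sobic.003G154500, named after UPB1 (AT2G47270), which sets the balance of division and elongation in the Arabidopsis root tip, ranged from 4.21 to 219 TPM (median 47.0) in roots, against 0 to 0.504 TPM (median 0) in leaves. For these 3 genes every root column lay above every leaf column. Across 72 members with a mean of at least 1 TPM in roots or in leaves, limma called 49 higher in roots (all genes 67.0%) and 10 lower in roots (all genes 20.3%), with a Benjamini-Hochberg adjusted p under 0.05 over all 22045 genes tested. The share higher in roots lay near that of all genes. Since 38 of the 72 passed that level in 1 tissue alone, a difference was built into their choice; of the 34 that passed it in both tissues, 19 were called higher in roots (all genes that passed in both 63.8%) and 3 lower (19.5%). The fitted log2 difference between root and leaf was 6.39 ± 0.27 (SE over times) for the FIT-like gene, 5.98 ± 0.33 for the AKS2-like gene and 4.99 ± 0.22 for the UPB1-like gene, each higher in roots at 6 of 6 times. The AKS2-like gene passed in both tissues (adjusted p = 6.98e-08 by limma); the FIT-like and the UPB1-like gene passed through roots alone, so their differences are descriptions.

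A second set of genes completed the root side. The bHLH51-like Sobic.003G061400 ranged from 17.7 to 120.4 TPM (median 57.9) in roots, against 0 to 1.74 TPM (median 0.465) in leaves. The bHLH96-like Sobic.001G476500 ranged from 14.4 to 86.8 TPM (median 35.8) in roots, against 0 to 2.34 TPM (median 0) in leaves. The bHLH87-like Sobic.003G273200 ranged from 9.45 to 98.3 TPM (median 33.1) in roots, against 0 to 1.11 TPM (median 0.0677) in leaves. These 3 also passed through roots alone, and their log2 differences between root and leaf were 5.26 ± 0.24, 5.12 ± 0.18 and 4.85 ± 0.25 (SE). By mean level the 5 most abundant root members also included the T5L1-like Sobic.003G017601 of the vascular branch (mean 113 TPM in roots and 4.59 TPM in leaves) and the FBH4-like Sobic.007G211000, named after an activator of the flowering gene CONSTANS (mean 90.1 TPM in roots and 49.4 TPM in leaves).

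Several light-signalling factors of the PIF branch stood higher in leaves. The UNE10-like Sobic.001G300201, of the PIF branch, ranged from 0 to 1.49 TPM (median 0.249) in roots, against 50.1 to 274 TPM (median 96.02) in leaves, the highest mean leaf level of the family. The PIF3-like Sobic.003G136900 had 0.0970 to 1.96 TPM (median 0.627) in roots, against 13.7 to 104 TPM (median 41.0) in leaves. The PIF1-like Sobic.001G158900 had 0.366 to 2.41 TPM (median 1.33) in roots, against 33.1 to 65.1 TPM (median 47.9) in leaves. These 3 did not overlap between the tissues, and their log2 differences between root and leaf were -6.30 ± 0.20, -4.54 ± 0.18 and -4.49 ± 0.15 (SE), lower in roots at 6 of 6 times. A PIF4-like gene (Sobic.008G163700, -2.84 ± 0.17) and a second PIF3-like gene (Sobic.009G036400, -1.88 ± 0.39) were lower in roots as well. Outside the PIF branch, so was Sobic.005G110502 (-2.22 ± 0.14), for which the annotation gives no Arabidopsis gene. Of 13 members of the PIF branch, 7 reached a mean of 1 TPM in a tissue. The UNE10-like, both PIF3-like and the PIF4-like gene did so in leaves alone and the SPT-like Sobic.010G051800 in roots alone, so their direction was fixed by that choice. The FAMA-like Sobic.009G250000, named after the factor that ends the stomatal lineage, passed through leaves alone and had a log2 difference of -2.07 ± 0.16. A second FAMA-like gene, Sobic.004G275500, went the other way: it passed through roots alone, at 1.93 to 8.69 TPM (median 4.28) in roots.

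Copies named after the same Arabidopsis gene differed in their balance of root and leaf levels. Over all genes tested the median log2 difference between root and leaf was 0.99, so a value near 0 lies below that of the median gene. Of the genes named after AKS2, Sobic.003G391100 had a mean of 45.5 TPM in roots and 44.5 TPM in leaves (log2 difference -0.04 ± 0.25, adjusted p = 0.887 by limma), Sobic.004G207200 had 83.2 TPM in roots and 21.3 TPM in leaves (2.12 ± 0.13, adjusted p = 1.69e-07), and Sobic.006G127900 was the root-rich gene above. Of the PIF1-like genes, Sobic.002G031000 had 10.6 TPM in roots and 6.31 TPM in leaves (0.57 ± 0.27, adjusted p = 0.068 by limma), while the leaf-rich Sobic.001G158900 had 1.36 TPM in roots and 49.0 TPM in leaves. Of the MYC2-like genes, Sobic.007G183100 stood at 0 to 0.0510 TPM (median 0) in roots, against 0.339 to 21.1 TPM (median 2.13) in leaves (log2 difference -1.80 ± 0.29).

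**Figure D1:**
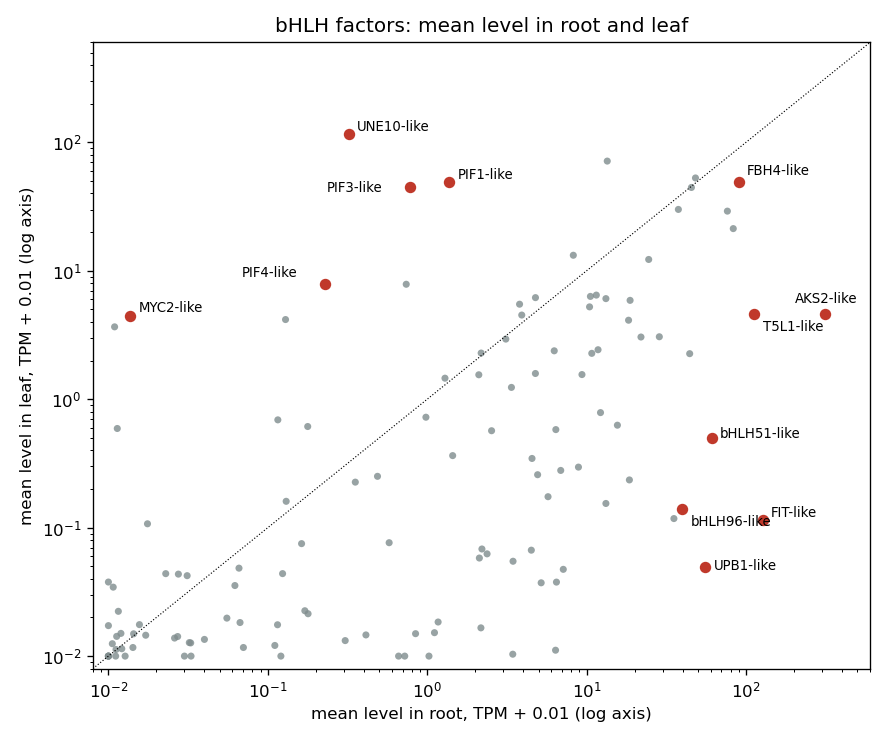
Mean level of each of the 127 genes over the 31 root columns (x axis) and the 26 leaf columns (y axis), in TPM + 0.01 on log axes, with 12 genes named in red; the dotted line marks equal levels. The FIT-like gene lies at 127.6 TPM in roots and 0.104 TPM in leaves, and the UNE10-like gene at 0.312 TPM in roots and 115 TPM in leaves.

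Among the solutions, iron limitation gave the largest set of called members, all in leaves. FeLim leaves also gave the most calls over all genes (1481 of 17088). Sobic.002G235700, named after CIL1 (AT1G68920), a relative of the cryptochrome partner CIB1, had 0.575, 0.290, 9.78, 11.4 and 13.0 TPM in FeLim leaves at 2, 4, 7, 14 and 21 d, against 0.310, 0.245, 0.405, 0.134 and 0.0797 TPM in control leaves. The gene was thus near 0 in both groups until 4 d and present in FeLim leaves alone of all leaf columns from 7 d on, where the other 3 solutions gave at most 0.669 TPM. The MYC2-like Sobic.007G183100 had 1.90, 2.20, 11.2, 15.4 and 21.1 TPM in FeLim leaves, against 1.48, 1.53, 1.92, 2.77 and 3.49 TPM in control leaves. It was higher at all 5 times, by less than 1 TPM until 4 d and by more than 9 TPM from 7 d. The other solutions left it at 1.20 to 4.19 TPM until 14 d, and at 21 d it stood at 9.32 TPM in FeEx leaves and 15.4 TPM in ZnEx leaves.

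The bHLH87-like Sobic.003G191800 had 2.44, 1.08, 14.0, 8.79 and 2.88 TPM in FeLim leaves, against 2.04, 0.783, 3.12, 0.823 and 0.806 TPM in control leaves, with its peak at 7 d. The bHLH112-like Sobic.003G319800, named after a factor of salt and drought tolerance in Arabidopsis, had 14.3, 9.69, 27.3, 25.7 and 22.0 TPM in FeLim leaves, against 10.53, 10.6, 9.23, 11.6 and 10.0 TPM in control leaves. In both genes FeLim leaves lay above control leaves at 7, 14 and 21 d. The AKS2-like Sobic.006G127900, the most abundant member of roots, went the other way: it had 2.71, 1.15, 0, 0 and 0 TPM in FeLim leaves, against 4.06, 6.83, 4.02, 7.19 and 3.99 TPM in control leaves. It was listed at 0 in FeLim leaves at the last 3 times and in no other leaf column.

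Fitted over the 5 times with limma, these 5 were the called members: 4 of 41 tested rose in FeLim leaves (all genes 6.79%) and 1 fell (all genes 1.87%). Both counts lay near the shares of all genes. The log2 differences, on log2(TPM + 1), which understates low genes, were 2.08 ± 0.45 (SE) for the CIL1-like Sobic.002G235700 (adjusted p = 0.025, higher at 5 of 5 times) and 1.41 ± 0.36 for the MYC2-like Sobic.007G183100 (adjusted p = 0.0306, 5 of 5). They were 1.16 ± 0.32 for the bHLH87-like Sobic.003G191800 (adjusted p = 0.0371, 5 of 5) and 0.78 ± 0.22 for the bHLH112-like Sobic.003G319800 (adjusted p = 0.0372, 4 of 5). The AKS2-like Sobic.006G127900 fell by 2.00 ± 0.47 (adjusted p = 0.027, lower at 5 of 5). The CIL1-like Sobic.002G235700 reached a mean of 1 TPM in leaves only through FeLim leaves at 7 to 21 d. Over all leaf columns its mean was 1.55 TPM and its median 0.231 TPM. A FeLim difference was thus built into its choice, and its p-values in leaves are descriptions. Over all members tested the median log2 difference was 0.03, against 0.24 over all genes, so most of the family lay slightly below the general shift of FeLim leaves. With that shift removed, the CIL1-like, the MYC2-like and the AKS2-like gene were called, and with the 7 d, the 14 d or the 21 d columns left out the adjusted p of the 5 genes lay between 0.123 and 0.225. The summed chlorophyll a-b binding level at 7 to 21 d was 56000 to 127000 TPM in FeLim leaves, against 121000 to 216000 TPM in control leaves. It also reached down to 60900 TPM in ZnLim leaves and 58600 TPM in ZnEx leaves. The other leaf marker, a gene named after RBCS, was not lower. It had 10100 to 13700 TPM in FeLim leaves at those times, against 9610 to 12300 TPM in control leaves. The part of these markers in the result was not tested. In bulk tissue fewer cells of a type and less RNA per cell cannot be told apart.

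The timing was tested as the FeLim effect at 7 to 21 d minus that at 2 and 4 d. It was 3.21 ± 0.32 (SE) on the log2 scale for the CIL1-like Sobic.002G235700 (adjusted p = 8.77e-05 by limma) and 1.88 ± 0.50 for the MYC2-like Sobic.007G183100 (adjusted p = 0.0491), the 2 members called of 41, both with the larger effect late (all genes 2.98%). A count of 2 lies near that share. For the CIL1-like gene the value is a description, since late FeLim leaves alone brought it into the fit. The MYC2-like call was lost in 8 of 11 alternatives, with adjusted p of 0.0194 to 0.433 over all 11, and the CIL1-like call in 1, with the boundary between 7 and 14 d (adjusted p = 0.189). A fit of the 3 late times alone, chosen after the data were seen, called 8 members higher (all genes 22.7%) and 4 lower (all genes 3.86%). Besides the 5 above, these were 7 genes. The bHLH35-like Sobic.004G140000 had 13.2, 14.6 and 15.8 TPM in FeLim leaves at 7, 14 and 21 d, against 5.24, 4.26 and 3.35 TPM in control leaves. The T5L1-like Sobic.003G017601 had 3.65, 8.92 and 11.5 TPM in FeLim leaves, against 0.811, 3.05 and 6.37 TPM in control leaves. Both stood above the control at every late time, as did the PIF1-like Sobic.002G031000 (log2 difference 1.23 ± 0.39) and the FBH4-like Sobic.002G246600 (0.98 ± 0.24).

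On the lower side of the late times, the AKS2-like Sobic.004G207200 had 9.27, 6.57 and 7.69 TPM in FeLim leaves at 7, 14 and 21 d, against 16.9, 36.9 and 22.3 TPM in control leaves. With Sobic.006G127900 it made 2 of the 3 AKS2-like genes lower there, and the third, Sobic.003G391100, had 34.2, 37.4 and 27.0 TPM in FeLim leaves, against 22.7, 56.8 and 40.1 TPM in control leaves, and was not called. The AIB-like Sobic.003G272200, named after an abscisic acid inducible factor that represses jasmonate responses, had 0.456, 0.328 and 4.33 TPM in FeLim leaves, against 1.35, 9.45 and 8.44 TPM in control leaves. The bHLH162-like Sobic.003G102200 had 0.690, 1.90 and 5.95 TPM in FeLim leaves, against 1.498, 25.7 and 8.56 TPM in control leaves. Its control value at 14 d was its highest of all leaf columns. FeEx leaves (5.21 TPM) and ZnLim leaves (9.68 TPM) were also at least 2-fold below that value at 14 d, and ZnEx leaves were not. For the AIB-like gene FeEx leaves alone of the other solutions were so far below the control at 14 d (4.01 TPM). The late log2 differences of these genes were -1.52 ± 0.34, -1.50 ± 0.49 and -1.41 ± 0.47 (SE), with adjusted p of 0.00929, 0.0413 and 0.045 by limma.

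**Figure D2:**
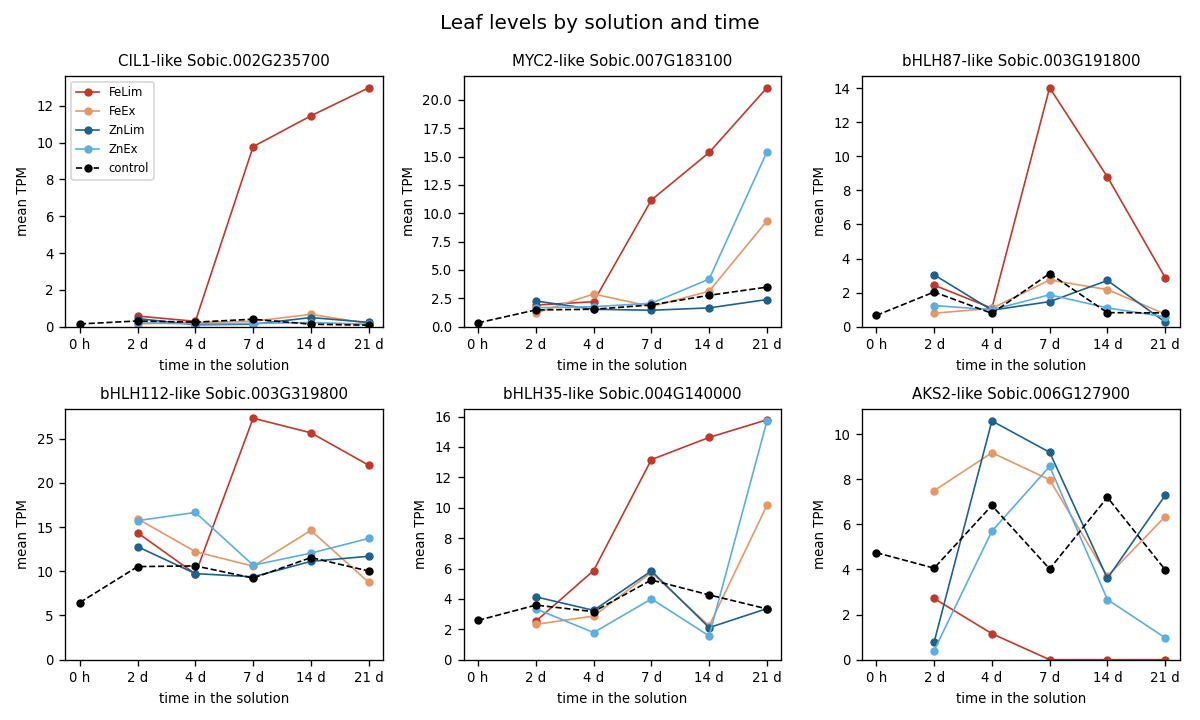
Leaf mean TPM (y axis, linear from 0) of 6 members by time in the solution (x axis) for FeLim, FeEx, ZnLim, ZnEx and the control (black, dashed). The FeLim line leaves the control from 7 d on, to 9.78 to 13.0 TPM against at most 0.405 TPM for the CIL1-like Sobic.002G235700, and lies at 0 for the AKS2-like Sobic.006G127900.

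Members of the partner and target lists were read beside the family. Of 18 JAZ genes, the repressors of MYC factors, 13 were tested in FeLim leaves and 1 rose; of 5 DELLA genes, which hold back PIF factors, 2 were tested and 1 rose; none of 4 phytochrome genes and none of 3 WD40 partner genes was called. Of 55 genes named after flavonoid enzymes, targets of the bHLH, MYB and WD40 complex, 13 were tested and 3 rose, and of 27 root hair target genes 14 were tested and 1 rose. Of all genes tested 6.79% rose in FeLim leaves, so 1 of 13 or 1 of 14 is near that share. Of the PIF branch itself 6 members were tested in FeLim leaves and none was called (median log2 difference 0.13), and of the MYC group 3 were tested and 1, Sobic.007G183100, was.

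The other solutions called no member in leaves. In FeEx leaves limma called 0 genes of 17088 (0% of all genes; 521 genes and 0 members had an unadjusted p under 0.05), in ZnLim leaves 0 (0%; 192 genes and 1 member) and in ZnEx leaves 5, none of them a member (0.0293% of all genes; 2060 genes and 3 members). Among members with a mean of at least 5 TPM in the higher group, the largest differences of 1 sign at 4 or more times in FeEx leaves were those of the AKS2-like Sobic.006G127900 (0.34 ± 0.47, SE), the AIB-like Sobic.003G004500 (0.33 ± 0.18), the PIF3-like Sobic.003G136900 (0.30 ± 0.33) and the AKS2-like Sobic.004G207200 (0.22 ± 0.33). In ZnEx leaves, under the same limit, they were those of the bHLH35-like Sobic.007G051800 (1.28 ± 1.06), the bHLH92-like Sobic.001G095700 (0.84 ± 0.54), the AKS2-like Sobic.006G127900 (-0.73 ± 0.47) and the bHLH25-like Sobic.001G107400 (0.56 ± 0.21). In Arabidopsis bHLH25 and bHLH19 bind FIT and promote its loss under jasmonate. Sobic.001G107400 had 55.5, 43.7, 24.3, 24.6 and 54.7 TPM in ZnEx leaves, against 27.1, 25.7, 16.8, 25.8 and 34.8 TPM in control leaves, higher at 4 of 5 times, without passing the test (adjusted p = 0.403 by limma).

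In roots the only called member was found under zinc excess. The bHLH96-like Sobic.004G228400 had 8.03, 4.41, 6.63, 5.68, 7.92 and 2.85 TPM in ZnEx roots at 1 h and 2, 4, 7, 14 and 21 d, against 9.10, 9.74, 12.8, 13.0, 12.7 and 8.55 TPM in control roots. Every ZnEx value lay below every control value. The number of libraries that the ZnEx means at 2 d and 7 d fit differs from the labels. The gene fell by 0.83 ± 0.18 on the log2 scale (SE, adjusted p = 0.0176 by limma), 1 of 64 members tested (all genes called lower 0.176%). The call was lost when the times other than 1 h were left out one at a time, with adjusted p of 0.054 to 0.0925, the value itself staying between -0.88 and -0.74. The root bHLH96-like copy Sobic.001G476500 had 32.9, 39.0, 86.8, 48.3, 40.7 and 25.6 TPM in ZnEx roots, against 24.97, 17.8, 15.1, 56.9, 81.1 and 49.4 TPM in control roots (0.30 ± 0.35, adjusted p = 0.746).

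The UPB1-like Sobic.003G154500 was at least 2-fold from the control, with at least 5 TPM in the higher group, at 12 of its 24 pairs of solution and time, the most of any member in roots. It had 43.9, 16.6, 60.2, 50.8, 109 and 49.7 TPM in FeLim roots and 122, 18.4, 7.68, 5.06, 14.9 and 4.21 TPM in FeEx roots. It had 104, 47.0, 52.6, 22.4, 54.2 and 25.1 TPM in ZnLim roots and 119.6, 219, 107, 56.3, 113 and 15.4 TPM in ZnEx roots at the 6 times, against 120.5, 11.5, 16.0, 39.2, 47.6 and 14.8 TPM in control roots. In ZnEx roots it was highest at 2 d, 219 TPM against 11.5 TPM in control roots, and above the control at 5 of 6 times. The ZnEx mean at 2 d is doubtful in its makeup, since its values fit a mean of 3 libraries and the labels give 2. In FeLim roots it was also above at 5 of 6. The FeEx root column at 7 d was low for most genes, with a median log2 difference from the control of -0.49 over all genes. Its 10 highest genes held 35.51% of all TPM. With that column included, the UPB1-like gene was below the control in FeEx roots at 4 of 4 times from 4 to 21 d, at 4.21 TPM against 14.8 TPM in control roots at 21 d. Over all times none of these passed the test: the log2 difference was 0.69 ± 0.52 (SE) for FeLim (adjusted p = 1), -1.04 ± 0.52 for FeEx (adjusted p = 0.655), 0.58 ± 0.52 for ZnLim (adjusted p = 0.802) and 1.43 ± 0.52 for ZnEx (adjusted p = 0.191, all by limma).

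The FIT-like Sobic.006G047200 had 138, 58.4, 175, 137, 219 and 119 TPM in FeLim roots and 179, 66.4, 86.5, 30.2, 82.9 and 46.0 TPM in FeEx roots. It had 191, 149, 114, 70.3, 106 and 23.4 TPM in ZnLim roots and 273, 339, 248, 141, 142 and 53.5 TPM in ZnEx roots, against 261, 82.9, 96, 89.3, 125 and 41.6 TPM in control roots. ZnEx roots lay above the control at 6 of 6 times, FeLim roots at 4 of 6 and FeEx roots at 1 of 6. The log2 difference was 0.77 ± 0.34 (SE) for ZnEx (adjusted p = 0.292 by limma), 0.39 ± 0.34 for FeLim (adjusted p = 1) and -0.50 ± 0.34 for FeEx (adjusted p = 0.71), none past the threshold. Over the 31 root columns the UPB1-like Sobic.003G154500 and the FIT-like Sobic.006G047200 moved together, with Pearson's r = 0.85 on log2(TPM + 1). The pair was picked after the values were seen, from 861 pairs with a median r of 0.03. These were the pairs of the 42 members with a mean of at least 5 TPM over the root columns after 0 h. The columns of one time share their sampling day, and 17 root plants were sampled at 2 times.

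**Figure D3:**
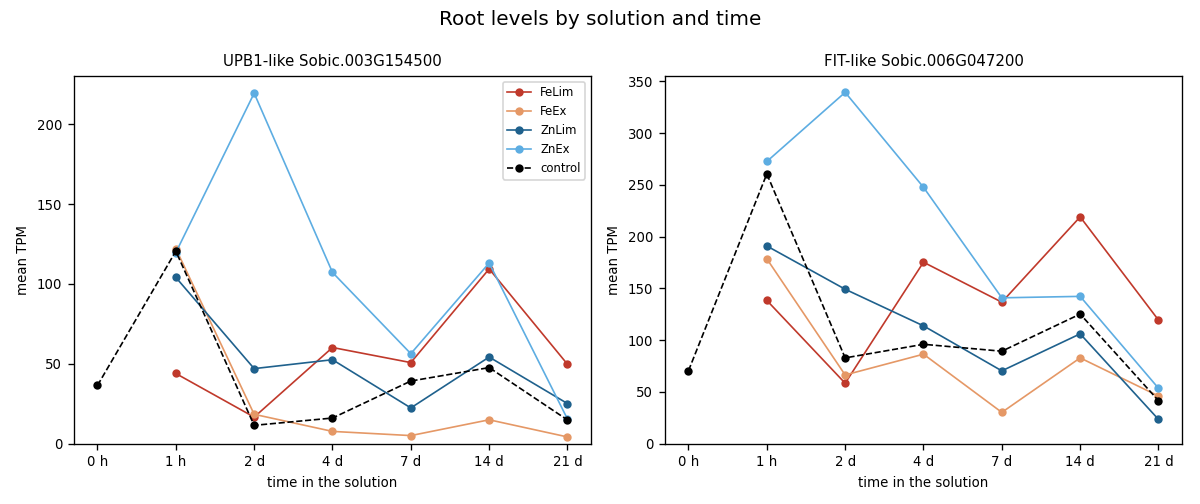
Root mean TPM (y axis, linear from 0) of the UPB1-like Sobic.003G154500 and the FIT-like Sobic.006G047200 by time in the solution (x axis) for FeLim, FeEx, ZnLim, ZnEx and the control (black, dashed). Both peak in ZnEx roots at 2 d, at 219 and 339 TPM, against 11.5 and 82.9 TPM in control roots.

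No other root comparison called a member. In FeLim roots limma called 0 of 20481 genes (0%; 100 genes and 0 members with an unadjusted p under 0.05), in FeEx roots 0 (0%; 1537 genes and 6 members) and in ZnLim roots 2, neither a member (0.00977% of all genes; 1298 genes and 5 members). The root-rich bHLH87-like Sobic.003G273200 had 16.4, 35.0, 20.0, 26.6, 38.9 and 25.7 TPM in ZnLim roots, against 20.7, 78.6, 98.3, 30.9, 54.6 and 33.1 TPM in control roots, lower at 6 of 6 times (-0.79 ± 0.28, adjusted p = 0.76 by limma). In FeEx roots it had 9.45, 33.5, 26.9, 23.5, 43.4 and 43.0 TPM, below the control at 5 of 6 times (-0.74 ± 0.28, adjusted p = 0.653). Control roots stood highest at 2 and 4 d for this gene. The AKS2-like Sobic.003G391100 was lower in ZnLim roots at 6 of 6 times (-0.49 ± 0.17, adjusted p = 0.745), and the PIF1-like Sobic.002G031000 was lower in FeEx roots at 6 of 6 times (-0.54 ± 0.28, adjusted p = 0.664). The bHLH19-like Sobic.001G278300 had 2.35, 17.9, 22.4, 20.2, 46.8 and 51.5 TPM in FeLim roots, against 2.00, 17.7, 19.5, 21.4, 19.4 and 23.9 TPM in control roots, with the wide gaps at 14 and 21 d (0.43 ± 0.30 over all times, adjusted p = 1).

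At single times, where no test can be had, a member counted as apart from the control at 2-fold or more on TPM + 1 with at least 5 TPM in the higher group. Pairs of a member and a time were counted. FeLim roots had 14 higher and 11 lower (6.5% of 384 pairs, against 5.51% of all gene and time pairs). FeEx roots had 15 higher and 27 lower (10.9% of 384 pairs, against 7.97% of all gene and time pairs). ZnLim roots had 20 higher and 16 lower (9.4% of 384 pairs, against 7.55% of all gene and time pairs). ZnEx roots had 33 higher and 22 lower (14.3% of 384 pairs, against 10.7% of all gene and time pairs). FeLim leaves had 24 higher and 14 lower (18.5% of 205 pairs, against 13.5% of all gene and time pairs). FeEx leaves had 8 higher and 6 lower (6.8% of 205 pairs, against 2.90% of all gene and time pairs). ZnLim leaves had 11 higher and 5 lower (7.8% of 205 pairs, against 4.12% of all gene and time pairs). ZnEx leaves had 15 higher and 4 lower (9.3% of 205 pairs, against 7.07% of all gene and time pairs). Each share lay above that of all genes tested, but in FeLim roots, ZnLim roots and ZnEx leaves it lay near it. Pairs of 1 gene are not independent. The bHLH35-like Sobic.007G051800 alone gave 11 of the leaf pairs, and the UPB1-like Sobic.003G154500 gave 12 of the root pairs. The gaps between the shares were not tested. Members also swung more widely over the columns: the median SD of log2(TPM + 1) was 0.536 for root members against 0.407 for all genes, and 0.608 for leaf members against 0.455. In ZnEx roots 13 members were higher and 5 lower at 2 d, of 64, where 25.6% of all genes were 2-fold apart, 11 higher and 3 lower at 4 d (all genes 12.56%), and 4 higher and 12 lower at 21 d (all genes 15.05%). The 2 d mean is 1 of the 3 root means whose number of libraries differs from the labels.

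**Figure D4:**
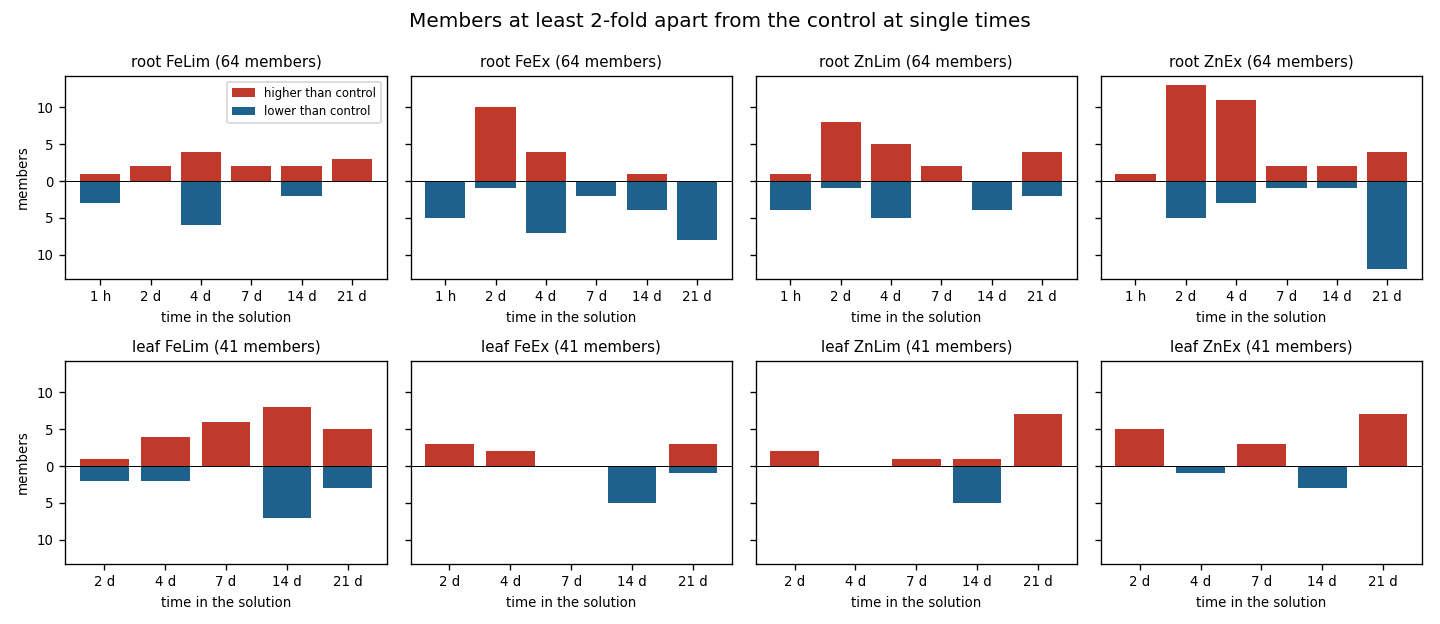
Number of members (y axis) at least 2-fold higher (red, upward) or lower (blue, downward) than the control at each time (x axis) in roots (top) and leaves (bottom), by solution. The tallest bars are 13 members higher in ZnEx roots at 2 d and 12 lower in ZnEx roots at 21 d.

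Part of the early root differences came with low or high control values. The bHLH25-like Sobic.001G107400 had 205, 10.8, 79.6, 39.3, 65.9 and 53.9 TPM in FeLim roots and 181, 72.0, 49.4, 37.8, 32.3 and 25.9 TPM in FeEx roots. It had 201, 31.0, 31.9, 43.7, 45.8 and 189 TPM in ZnLim roots and 186, 56.4, 45.4, 56.2, 44.6 and 14.5 TPM in ZnEx roots, against 188, 8.70, 21.2, 75.8, 54.2 and 73.0 TPM in control roots. Its control values at 2 and 4 d were the lowest of the control series. The bHLH113-like Sobic.001G082600 had 7.93, 18.4, 24.5, 10.6, 10.96 and 14.1 TPM in FeEx roots, against 19.0, 5.93, 8.68, 14.0, 13.1 and 11.9 TPM in control roots, again with the lowest control values at 2 and 4 d. The bHLH41-like Sobic.009G073800 was at least 2-fold from the control at 3 times each in ZnLim and ZnEx roots, with 7.57, 2.06, 5.93, 0.313, 4.48 and 23.2 TPM in ZnLim roots and 20.5, 15.6, 7.93, 7.61, 11.9 and 5.05 TPM in ZnEx roots, against 21.0, 2.01, 1.10, 1.81, 5.81 and 7.83 TPM in control roots. The bHLH96-like Sobic.001G261448 had 0.643, 8.97, 11.4, 15.5, 6.69 and 3.95 TPM in ZnLim roots and 0.511, 7.24, 11.6, 5.43, 11.2 and 2.77 TPM in ZnEx roots, against 0.327, 2.21, 3.51, 9.58, 13.4 and 8.91 TPM in control roots, above the control at 1 h, 2 d and 4 d and below it at 14 and 21 d in both solutions.

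The widest swings of the family belonged to the bHLH35-like Sobic.007G051800. In roots it had 8.77, 0.0170, 0.343, 0, 0.606 and 219 TPM in FeLim roots and 3.42, 0.778, 0.550, 0.405, 0.579 and 0.742 TPM in FeEx roots. It had 2.65, 0.150, 0.268, 0.215, 1.14 and 824 TPM in ZnLim roots and 7.70, 0.172, 0.573, 2.28, 2.98 and 1.505 TPM in ZnEx roots, against 8.44, 0.756, 0.0800, 0.539, 1.83 and 379 TPM in control roots. From 2 to 14 d it stood below 3 TPM in every root column, and at 21 d it stood above 200 TPM in FeLim, ZnLim and control roots and below 2 TPM in FeEx and ZnEx roots. In leaves it had 5.04, 168.1, 0.624, 0.134 and 68.3 TPM in FeLim leaves and 24.1, 38.4, 2.68, 19.8 and 39.7 TPM in FeEx leaves. It had 4.51, 19.1, 0.522, 110.2 and 284 TPM in ZnLim leaves and 24.7, 27.1, 32.2, 70.3 and 138 TPM in ZnEx leaves, against 9.62, 14.5, 1.05, 235 and 34.4 TPM in control leaves. FeEx and ZnEx leaves lay above the control at 4 of 5 times, the exception being 14 d, and FeLim and ZnLim leaves crossed it. Its SD of log2(TPM + 1) was 2.52 over root columns and 2.39 over leaf columns, at the 99.9th percentile of all genes tested in each tissue.

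Other members had a like pattern in roots at 21 d. The bHLH92-like Sobic.001G095700 at 21 d had 76.4 TPM in FeLim roots and 4.94 TPM in FeEx roots. It had 147 TPM in ZnLim roots and 7.42 TPM in ZnEx roots, against 132 TPM in control roots. The bHLH162-like Sobic.003G102200 had 32.8, 5.37, 82.9 and 12.8 TPM in the same order, against 57.6 TPM in control roots. A second bHLH92-like gene, Sobic.003G313100, stayed below 2 TPM in roots until 14 d and at 21 d had 22.1, 0.198, 80.4 and 1.09 TPM, against 40.2 TPM in control roots. FeLim, ZnLim and control roots were thus high at 21 d in all 4 genes, and FeEx and ZnEx roots low. Pearson's r with the bHLH35-like Sobic.007G051800 over the 31 root columns was 0.88 for Sobic.001G095700, 0.89 for Sobic.003G102200 and 0.93 for Sobic.003G313100, and over the 26 leaf columns it was 0.93 for Sobic.001G095700 and 0.88 for Sobic.003G102200. The pairs were picked after the values were seen, from 861 root pairs (median r 0.03) and 210 leaf pairs (median r 0.14). The root values rest in part on the 21 d columns of FeLim, ZnLim and control roots, which share their sampling day. Of the 6 bHLH41-like genes, 5 had their highest leaf value in ZnLim leaves at 21 d. That column was also the highest leaf column of 14.9% of all genes tested in leaves. Some of these bHLH41-like genes were not among those tested, so the 2 shares cannot be compared. The pattern was picked after the values were seen. Sobic.003G031100 had 29.8 TPM in ZnLim leaves at 21 d, against 0.0647 TPM in control leaves, and Sobic.003G195600 had 28.5 TPM, against 1.17 TPM in control leaves. Sobic.003G031100 reached a mean of 1 TPM in leaves only through that column (mean 1.23 TPM, median 0 TPM). Sobic.009G073500, Sobic.009G073800 and Sobic.010G172800, which did not pass the leaf filter, had 13.1, 5.56 and 4.19 TPM.

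**Figure D5:**
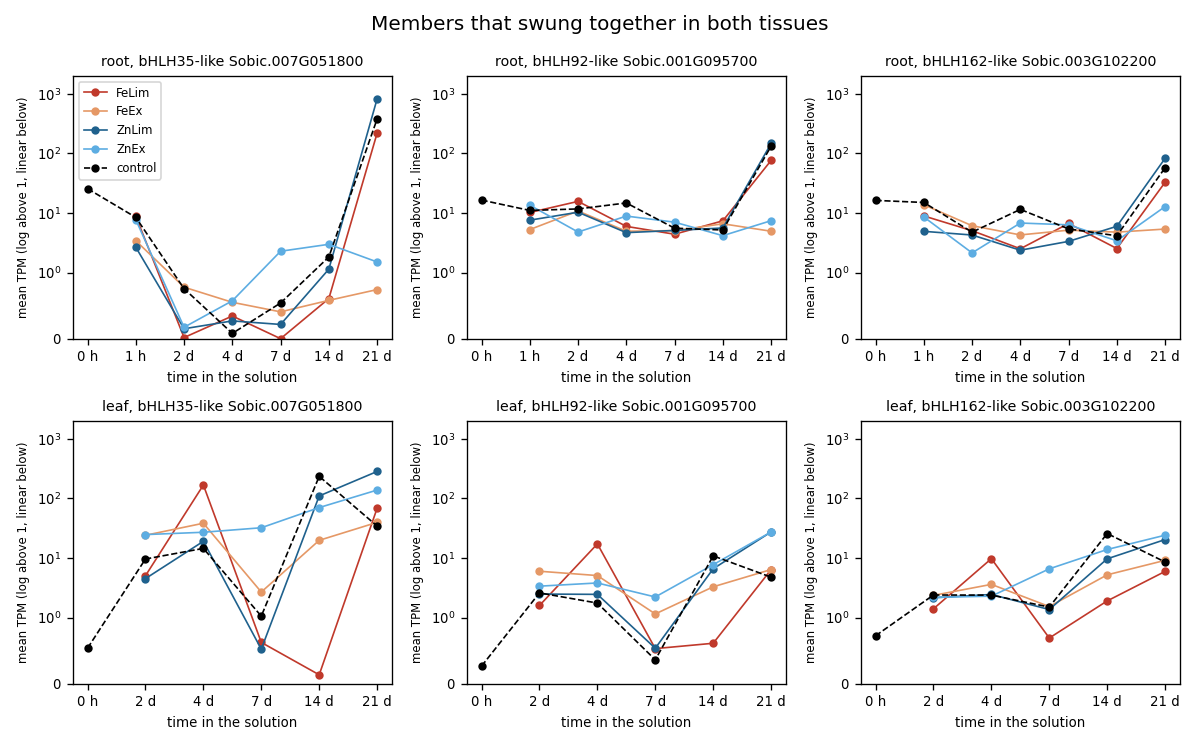
Mean TPM (y axis, log above 1 and linear below) of the bHLH35-like Sobic.007G051800, the bHLH92-like Sobic.001G095700 and the bHLH162-like Sobic.003G102200 in roots (top) and leaves (bottom) by time in the solution (x axis), for FeLim, FeEx, ZnLim, ZnEx and the control (black, dashed). At 21 d the root lines part into FeLim, ZnLim and control above FeEx and ZnEx, from 219 to 824 TPM against 0.742 to 1.51 TPM for the bHLH35-like gene.

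Several members had 1 h root values, in all 5 solutions, that lay apart from every later root value. The AKS2-like Sobic.006G127900 had 55.6, 974, 369, 289, 468 and 341 TPM in FeLim roots and 51.6, 387, 312, 104, 530.1 and 390.0 TPM in FeEx roots. It had 42.5, 553, 538, 375, 255 and 203 TPM in ZnLim roots and 42.2, 181, 204, 240.3, 377 and 141 TPM in ZnEx roots, against 45.5, 718, 628, 143, 310.5 and 280.1 TPM in control roots. Its 1 h values lay below every later value. In all, 5 of 64 members were lower at 1 h without overlap with the 25 later columns (all genes 1.78%). Another 4 were higher (all genes 5.71%), a count near the share of all genes. Both counts were made after the values were seen. The lower ones were that gene, the bHLH19-like Sobic.001G278300 (0.886 to 2.35 TPM at 1 h, against 8.13 to 51.5 TPM later and 14.2 TPM in control roots at 0 h), a second bHLH19-like gene, Sobic.001G278500, the bHLH96-like Sobic.001G261448 and the RSL3-like Sobic.001G166700. The higher ones were the CIL1-like Sobic.002G235700 (14.5 to 17.7 TPM at 1 h, against 3.25 to 10.7 TPM later and 18.1 TPM in control roots at 0 h), the bHLH25-like Sobic.008G186100 (28.8 to 42.3 TPM at 1 h, against 6.79 to 20.4 TPM later and 18.6 TPM in control roots at 0 h), the RHD6-like Sobic.004G264200, named after the factor that starts root hairs (11.5 to 13.2 TPM at 1 h, against 0.109 to 8.10 TPM later and 10.1 TPM in control roots at 0 h), and the BIM1-like Sobic.004G253300, named after a brassinosteroid partner (10.7 to 16.0 TPM at 1 h, against 0.741 to 9.05 TPM later and 13.3 TPM in control roots at 0 h). For the higher genes the 0 h value lay above the 1 h range (CIL1-like), inside it (BIM1-like), or between it and the later values or among them (RHD6-like and bHLH25-like), so 1 h stood apart from the later times and not always from 0 h. For the AKS2-like gene the 0 h value was 148 TPM. The PIF1-like Sobic.002G031000 ran with the AKS2-like Sobic.006G127900 over the 31 root columns (Pearson's r = 0.93, the highest of the 861 pairs), with 1.52 to 2.80 TPM at 1 h.

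The remaining comparisons found no member. The level at 7 to 21 d minus the earlier level (2 and 4 d in leaves, with 1 h added in roots), across solutions, gave 0 called genes by limma in leaves (0% of 17088; 477 with an unadjusted p under 0.05) and 0 in roots (0% of 20481; 844). The late minus early effect of FeEx in roots was called for 81 genes (0.395%), none of them a member (17 of 64 members and 4378 of 20481 genes had an unadjusted p under 0.05). The solution effect in roots minus that in leaves, tested for the 34 members expressed in both tissues, was called for no member under FeLim (0.103% of 15528 genes; 2511 with an unadjusted p under 0.05), FeEx (0%; 1139), ZnLim (0%; 366) or ZnEx (0.251%; 2198). Of the 5 leaf calls under FeLim, 4 could be tested this way and none passed: the adjusted p (limma) was 0.0625 for the CIL1-like, 0.0784 for the AKS2-like, 0.252 for the bHLH87-like and 0.439 for the bHLH112-like gene. Late FeLim leaves alone brought the CIL1-like gene into this comparison, so its value is a description. The MYC2-like Sobic.007G183100 was not tested, being near 0 in roots. The CIL1-like Sobic.002G235700 had 16.7, 5.24, 8.46, 9.39, 9.43 and 7.60 TPM in FeLim roots, against 17.7, 4.40, 6.15, 10.3, 10.7 and 7.13 TPM in control roots.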

How the data were processed

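The members and lists were chosen with earlier results of these data known. The deposited table gives the authors' mean TPM of each gene in 57 columns (31 root, 26 leaf), made from 177 libraries of 80 plants, per the labels. DRAGEN is named in the submitters' processing notes; of the genome build and the annotation release nothing is recorded in the labels or the table header. Of its 34924 rows 795 were repeats of a gene and were dropped. The deposited columns summed to 1009075 to 1022381.9, and 8 of them, over the tolerance for TPM, were recorded as signal and treated alike; unique genes sum to 1000000. In 3 root means (ZnEx at 2 d, ZnEx at 7 d and FeEx at 7 d) the number of libraries that the values fit differed from the labels; in FeEx at 7 d the 10 highest genes held 35.51% of all TPM. Values were transformed to log2(TPM + 1), filtered to a mean of at least 1 TPM over the columns of the tissue after 0 h (for root against leaf, over all columns of either tissue), and fitted with limma 3.58.1 (trend on) in R 4.3.3, with time and solution as terms and sampling times as the replicates; p-values were adjusted by Benjamini-Hochberg over all genes tested (threshold 0.05). The p-values therefore measure the spread between times, not between plants. Functions were tested on simulated data. Columns held 18606 to 20758 genes of at least 1 TPM in roots and 15533 to 17977 in leaves. Genes were named by a fixed rule: in each fit up to 12 called members with at least 5 TPM in the higher group, or, where none was called, the 4 largest of 1 sign at all times but at most 1; the 5 highest per tissue; 6 each way between tissues; up to 4 per solution and tissue at single times; and up to 4 called members of each role list. Genes beyond it (widest swings, 1 h columns, late times, copies) were chosen after their values were seen. Where the table gives only an Arabidopsis locus, its usual name was used. Alternatives were a pseudocount of 0.1, no filter, rescaled columns, fewer columns, no trend, another boundary of early and late, a 4-fold limit, each time left out and the FeEx root mean at 7 d rebuilt without its 6 dominant genes. Python 3.11.15, pandas 2.3.3 and matplotlib 3.10.9 made tables and figures. No sequence is printed because none of the tables used here ties these genes to one.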

Additional observations from a re-analysis of the deposited data

Results flagged for a closer look

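The iron limitation effect in leaves differed between the late times (7, 14 and 21 d) and the early times (2 and 4 d) for the CIL1-like Sobic.002G235700, by 3.21 ± 0.32 on the log2 scale (SE), with an adjusted p of 8.77e-05 (limma, Benjamini-Hochberg over all genes tested). Its FeLim value lay above the control at all 5 times. This gene reached a mean of 1 TPM in leaves only through FeLim leaves at the late times, so its p-value is a description. The same contrast was called for the MYC2-like Sobic.007G183100, at 1.88 ± 0.50 (SE, adjusted p = 0.0491), also above the control at all 5 times. Over 11 alternatives the adjusted p ran from 0.0194 to 0.433 for the MYC2-like Sobic.007G183100, which lost the call in 8 of them, and the CIL1-like Sobic.002G235700 lost the call with the boundary between 7 and 14 d (adjusted p = 0.189). No other member was called in a contrast of late with early effects, or of root with leaf effects. Groups of single libraries could not be searched for a value that stands apart, since the table gives means.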

How the results depend on the processing

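For root against leaf 59 members were called, 54 to 69 under the alternatives, and all 144 refits of its 12 named members kept direction and call; for the members that passed in 1 tissue alone that direction was fixed by their choice. Over all named members 191 of 234 refits kept both, 43 lost the call with the direction kept, and none turned round. For FeLim leaves (5 members called) no filter on mean TPM gave 0 members, rescaling each column by its median log ratio gave 3, the fit of FeLim and control columns alone 0, and the late times alone, added after the data were seen, 12; leaving out each time gave 0 to 7. The late minus early effect there (2 members) gave 1 with a pseudocount of 0.1, 1 with the boundary between 7 and 14 d, and 1 to 10 with each time left out. In ZnEx roots (1 member) the fit of ZnEx and control columns alone and the late times alone gave 0, and leaving out each time 0 to 2. Where no member was called, the late minus early effect gave 3 in FeEx roots from the FeEx and control columns alone and 0 to 2 with each time left out, and 0 to 1 in ZnEx roots; the FeLim effect in roots minus leaves gave 0 to 2, and the late minus early level in leaves 0 to 2. Pairs of member and time at least 2-fold apart numbered 245 in all, 61 at 4-fold and 229 to 286 under the other alternatives. The causes were not tested. No paired analysis was possible because the table gives 1 mean per tissue, time and solution, and its columns carry no replicate numbers. Sampling times stand in for replicates, 17 root and 3 leaf plants were sampled at 2 times, and the depth behind each mean is unknown, so values near 0 are limited by an unknown floor.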
